A study of Homo sapiens with 12 samples.

Results

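The libraries compared were the 4 that stand for 14 irradiations in a series of 12 libraries of HaCaT cells, a wild-type line of spontaneously immortalised human skin keratinocytes. They were chosen by their titles: dark a and dark b come from control cells and blue a and blue b from irradiated cells. Per the labels' protocols, irradiated cells lay in buffered saline under an LED of 408 nm at 4.6 mW per cm2, took up 50 J per cm2 in each of 3 weekly sessions, and went back into serum-containing medium between sessions. The dose was set to be lethal to part of a culture, and cells were passaged every few days. Survival and regrowth were not analysed here. The labels do not say whether dark plates also stood in saline, how long after the last session RNA was taken, or whether the letters a and b mark separate cultures. The tests therefore rest on the spread between a and b, which may be purely technical. The other 8 libraries, dark and irradiated cells after 3 or 42 irradiations, entered the estimate of the spread between libraries.

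Several sets of genes that bear on how keratinocytes meet light and injury were described in detail. They were chosen with earlier results of these data known. Their shares beside those of all genes are therefore descriptions and not independent support for a shift. Immediate early genes are transcription factors and feedback regulators that are switched on from standing factors, without new protein synthesis, when kinases downstream of growth factor receptors or stress are activated. Basal adhesion genes encode the hemidesmosomes, laminins and integrins that tie basal keratinocytes to the basement membrane, and TP63 is the transcription factor that keeps the basal state. The aryl hydrocarbon receptor is a ligand-activated factor that binds tryptophan photoproducts and induces cytochrome P450 genes in skin, and ribosomal protein genes are controlled together and track growth.

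The 4 libraries differed in depth. Dark a held 3561392 counts, dark b 7950222, blue a 3517401 and blue b 2073160, so the largest held 3.83 times the counts of the smallest. Levels are given in CPM, that is, relative to the library total after scaling by the trimmed mean of M-values. On this scale the limit set by 3 counts was 0.859 CPM in dark a, 0.383 in dark b, 0.862 in blue a and 1.43 in blue b. Over 8689 genes above 10 CPM, the SD of log2 differences was 0.346 between blue a and blue b, against 0.250 between dark a and dark b and 0.157 to 0.269 in the other groups. This SD includes the counting error of the smallest library. Set against sampling noise, the chi-square per degree of freedom was 4.72 for blue a and blue b and 1.62 to 8.30 over the 6 groups. Mitochondrially encoded genes held 14.7% to 16.1% of counts in the 4 libraries. Keratinocyte markers were present in all 4 libraries: 13 of them summed to 6543 CPM in dark a, 6749 in dark b, 7953 in blue a and 7168 in blue b, while leukocyte, endothelial and melanocyte markers summed to at most 16.3 CPM, with CD3D, TEK, MLANA and TYR at 0. Neuronal markers, which differed between the groups, are described further on.

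After 14 irradiations no gene passed the test between irradiated and dark cells once p-values were adjusted over all genes that passed the filter on low counts. Of 12878 genes tested with edgeR's quasi-likelihood test, 0 (0%) had a Benjamini-Hochberg adjusted p under 0.05, and the smallest adjusted p was 0.552. At an unadjusted p under 0.05 there were 366 genes higher in irradiated cells (2.84%) and 392 lower (3.04%). DESeq2 called 2 genes: EGR1, an immediate early transcription factor, with an adjusted p of 0.000315, and SERPINB13, an epithelial serpin known to inhibit cysteine cathepsins, with 0.013. With no filter on low counts edgeR called 14 genes. The count of calls also moved with single libraries: it was 11 without blue a, all lower in blue b alone, and 1 each without blue b (RPL13AP25), dark a (EGR1) and dark b (SCGB1A1). Among the 11 were CTSZ, a lysosomal protease, S100A11, a calcium-binding protein, and the ribosomal protein gene RPL39. CTSZ shows how blue b alone carried those calls: it stood at 134 CPM in dark a, 143 in dark b, 126 in blue a and 47.3 in blue b. Both irradiated libraries lay above both dark libraries for 2133 genes (16.6%) and below both for 2137 (16.6%), and the median log2 difference over all genes was -0.01.

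**Figure D1:**
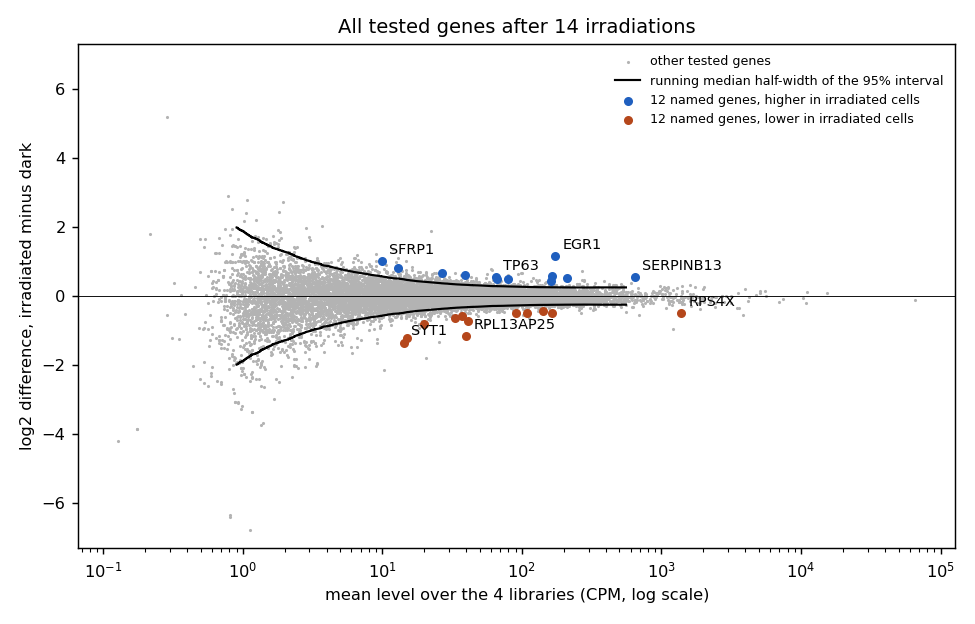
Log2 difference between irradiated and dark cells after 14 irradiations (vertical axis) against the mean level over the 4 libraries in CPM (horizontal log axis) for all 12878 tested genes. Black lines mark the running median half-width of the 95% interval, and blue and brown points mark the 12 named genes each way, which lie at or outside those lines although none reached an adjusted p under 0.05.

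The intervals around the differences show which sizes of change these libraries leave out. A 95% interval was computed for each gene, and a size of change was counted as outside when the interval lay within that fold in both directions. For 96.3% of the 6798 genes between 10 and 100 CPM and 98.9% of the 1941 genes over 100 CPM, the interval lay within a 2-fold change. A 1.5-fold change lay outside for 65.6% and 91.5% of the same genes. Between 1 and 10 CPM (3829 genes) a 2-fold change lay outside for 28.4%, a 3-fold change for 65.0% and a 4-fold change for 81.5%. For the 310 genes under 1 CPM no gene reached 2-fold, and an 8-fold change lay outside for 57.4%. Over all tested genes the shares were 48.6% for 1.5-fold, 74.2% for 2-fold, 86.9% for 3-fold, 92.1% for 4-fold and 97.7% for 8-fold.

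When the intervals were widened to hold for all genes at once, smaller shares remained inside. A 2-fold change then lay outside for 21.1% of all genes, 19.3% of those between 10 and 100 CPM and 72.6% of those over 100 CPM. For 4-fold the shares were 66.4%, 93.5% and 96.7%, and for 1.5-fold no gene qualified. Without blue a the share of all genes whose own interval lay within 2-fold was 57.6%. With only the 4 libraries in the fit it was 84.3% of the 11183 genes kept there.

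**Figure D2:**
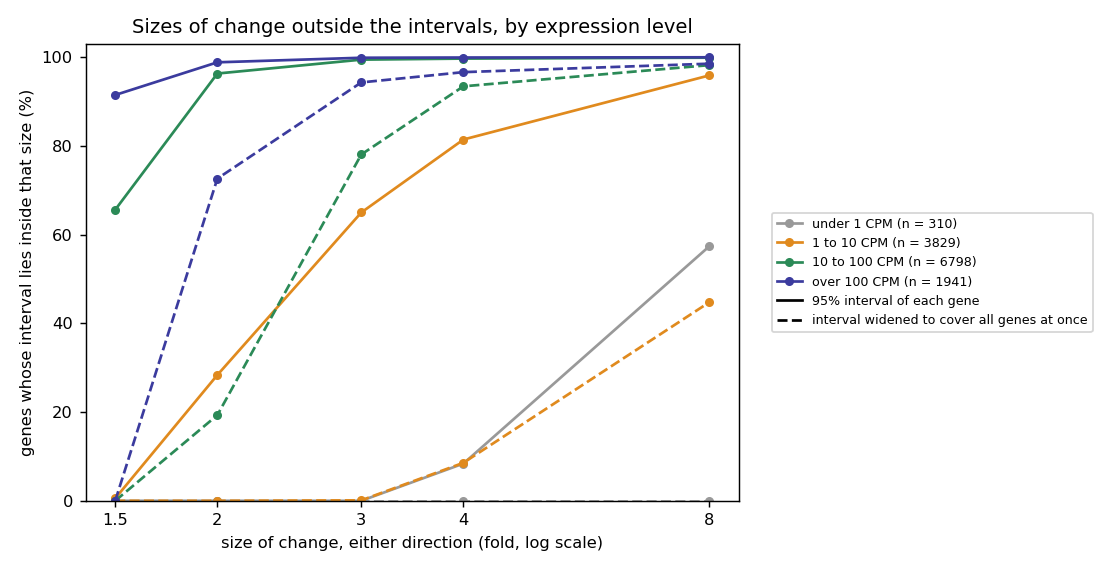
Share of genes (vertical axis, percent) whose 95% interval lies within a given fold change in both directions (horizontal log axis), by mean level over the 4 libraries. Solid lines are intervals for each gene alone and dashed lines intervals widened over all genes. At 2-fold the solid lines stand at 98.9% for genes over 100 CPM and at 28.4% for those between 1 and 10 CPM.

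With the intervals widened over all genes, 531 of the 1941 genes over 100 CPM were not within 2-fold. By the 95% interval of each gene alone, 22 were not. Among these, S100A9, an alarmin subunit, stood at 299 CPM in dark a, 109 in dark b, 237 in blue a and 436 in blue b. SCGB1A1, a secretoglobin of airway secretory cells, stood at 2073 CPM in dark a, 1135 in dark b, 910 in blue a and 738 in blue b, and its groups did not overlap (log2 difference -0.96 ± 0.24 SE, edgeR adjusted p = 0.709). EGR1 was the member of this group with the largest difference. Fitted differences past 2-fold numbered 429, of which 289 were lower and 140 higher, but the mean of the higher group reached 10 CPM for just 16, 8 in each direction.

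Immediate early genes stood higher in irradiated cells more often than genes at large. Of 28 listed genes 24 were tested, 19 of them had a difference above 0 (79.2%, against 48.6% of all genes), and the median was 0.28. At an unadjusted p under 0.05 there were 9 higher and 0 lower, and both irradiated libraries lay above both dark libraries for 9 (37.5%, against 16.6%) and below for 1. None passed adjustment, the smallest adjusted p being 0.709. The count of 9 moved with the libraries of the comparison: it was 2 without blue b, 3 without dark b, 12 without blue a or without dark a, and 5 of 21 with the 4 libraries alone. EGR2, EGR4, NR4A3 and CCN2 did not pass the filter on low counts.

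The library with the fewest counts carried much of this. Relative to the mean of the dark libraries, the median member stood at 0.12 in dark a, -0.12 in dark b, 0.09 in blue a and 0.49 in blue b on a log2(CPM + 0.5) scale, so blue a lay below dark a. Blue b held the highest level of the 4 libraries for 18 of the 24 genes and blue a for 2. The median difference was 0.14 without blue b, 0.49 without blue a, 0.40 without dark a and 0.20 without dark b.

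EGR1 (ENSG00000120738, GRCh38 chromosome 5 from 138465490 to 138469315, plus strand), a zinc finger factor induced through the serum response factor, had the largest difference of the genes above 100 CPM. It stood at 135 CPM in dark a, 80.1 in dark b, 207 in blue a and 269 in blue b, and the groups did not overlap. The log2 difference was 1.16 ± 0.24 (SE), with a 95% interval of 0.63 to 1.70 and an edgeR adjusted p of 0.709. It ran from 0.81 without dark b to 1.56 without dark a, where it passed with an adjusted p of 0.00458. Dark a and dark b themselves differed in EGR1 by more than dark a and blue a did on the log2 scale.

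The 250 bases before the EGR1 start in RefSeq (GRCh38.p14, chr5:138465229-138465478, plus strand) are shown because the gene is known as a serum response factor target. Capitals mark the 2 matches to the CArG box, CC followed by 6 bases of A or T and GG, the sequence that this factor binds. They lie 105 to 96 and 83 to 74 bases before the start.
EGR1: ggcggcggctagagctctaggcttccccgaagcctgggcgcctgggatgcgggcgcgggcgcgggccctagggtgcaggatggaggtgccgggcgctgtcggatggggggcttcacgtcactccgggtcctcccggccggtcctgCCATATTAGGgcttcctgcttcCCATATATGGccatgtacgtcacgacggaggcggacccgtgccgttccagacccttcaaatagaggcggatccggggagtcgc
The motif was searched on both strands in the 250 bases before each gene. It occurred in 1.14% of 27305 promoters and in 2 of the 20 immediate early genes with an entry, EGR1 and SRF. A match describes the letters in this window and not a site in use.

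The other zinc finger and AP-1 factors followed with smaller or less certain differences. FOS, which pairs with JUN proteins in AP-1, stood at 55.6 CPM in dark a, 34.6 in dark b, 70.1 in blue a and 65.4 in blue b (0.64 ± 0.28). JUNB, a JUN protein, stood at 252 and 215 CPM in dark and 282 and 367 in blue (0.47 ± 0.18). Both groups separated for these genes, with dark a nearer to the irradiated libraries. FOSB overlapped, at 61.3 and 45.5 CPM in dark and 57.5 and 66.8 in blue (0.23 ± 0.32). MYC, the growth-promoting factor, stood at 16.9 and 18.0 CPM in dark and 22.1 and 32.9 in blue (0.61 ± 0.20). ATF3, a stress-induced repressor of the ATF family, stood at 23.8 and 21.3 CPM in dark and 25.3 and 37.2 in blue (0.44 ± 0.18), so blue a was close to dark a.

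EGR3 and KLF2 were low. EGR3 had 1 count in dark a, 5 in dark b, 7 in blue a and 9 in blue b, or 0.286, 0.639, 2.01 and 4.30 CPM, and its difference of 2.44 ± 0.79 had a 95% interval from 0.83 to 4.13. Dark a was under the limit of 3 counts, and the groups did not overlap. KLF2 had 6 and 7 counts in dark and 7 and 10 in blue (1.40 ± 0.64), and blue a with 2.01 CPM was near dark a with 1.72. IER2 overlapped, at 260 and 190 CPM in dark and 247 and 375 in blue, although its unadjusted p was under 0.05. KLF10 and MCL1, an anti-apoptotic BCL2 relative, separated with 0.37 ± 0.20 and 0.28 ± 0.12. IER3 was the 1 member with both irradiated libraries below both dark libraries, at 399 and 384 CPM in dark and 356 and 382 in blue (-0.09 ± 0.11).

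EGF receptor ligands and feedback genes of the ERK pathway, which signals to many immediate early genes, showed no such shift as a list. Of 24 tested genes 13 lay above 0, the median was 0.05, and 2 were higher and 1 lower at an unadjusted p under 0.05. The phosphatase gene DUSP1 stood at 7.16 CPM in dark a, 3.32 in dark b, 6.61 in blue a and 10.98 in blue b (0.83 ± 0.39), so the groups overlapped. PHLDA1 stood at 133 and 122 CPM in dark and 134 and 182 in blue (0.30 ± 0.13), with blue a level with dark a. The receptor gene EGFR, at 576 and 593 CPM in dark and 642 and 625 in blue, differed by 0.11 ± 0.11 with an interval that left out anything beyond 1.26-fold. HBEGF (0.16 ± 0.13) and DUSP6 (0.16 ± 0.13) also separated by small margins. SPRY4, an ERK inhibitor, had 6 counts in dark a, 12 in dark b and 1 in each irradiated library, or 1.72, 1.53, 0.287 and 0.477 CPM, so both irradiated libraries were under the limit of 3 counts.

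**Figure D3:**
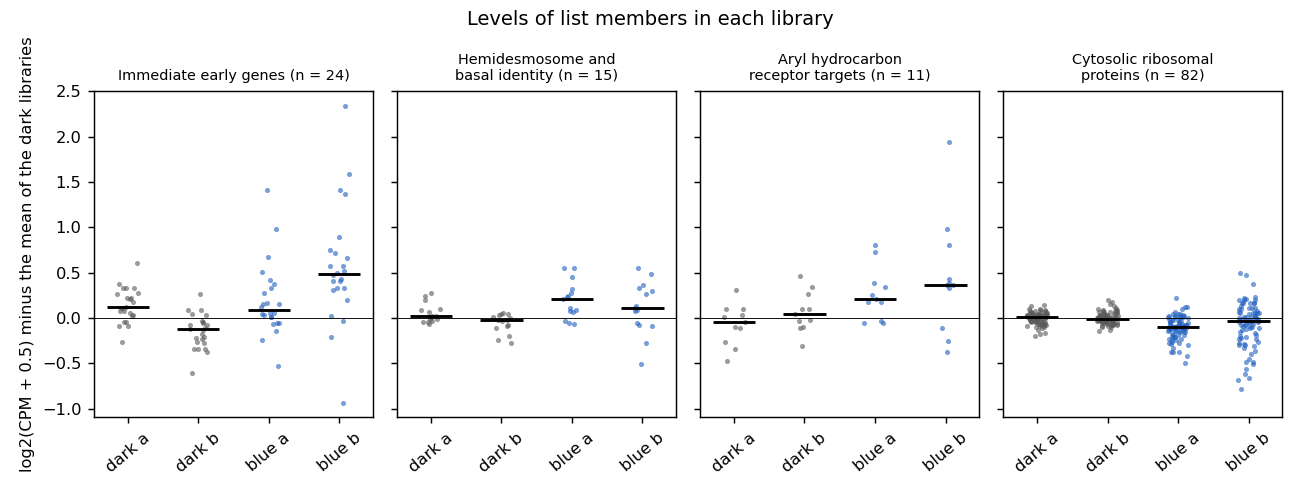
Level of each list member in each library, as log2(CPM + 0.5) minus the mean of dark a and dark b (vertical axis); each point is a gene and black bars are medians. For immediate early genes the bar of blue b stands at 0.49 and that of blue a at 0.09, below dark a at 0.12.

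Basal adhesion genes as a whole were close to level, and the shift lay in a few members. Of 41 tested genes 26 lay above 0 (63.4%, against 48.6% of all genes), with a median of 0.07, 3 higher and 1 lower at an unadjusted p under 0.05, and 9 separated upwards (21.95%, against 16.6%) and 4 downwards. A 2-fold change lay outside the interval for 39 of the 41. The median ran from 0.03 without dark b to 0.11 without dark a, and 5 genes were lower at an unadjusted p under 0.05 without blue a.

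In the hemidesmosome, the anchoring complex of basal cells, 5 of 6 genes lay above 0 with a median of 0.15, and all 6 intervals lay within 2-fold. ITGA6 (ENSG00000091409, GRCh38 chromosome 2 from 172427354 to 172506282, plus strand), the integrin alpha subunit of the complex, stood at 468 CPM in dark a, 492 in dark b, 597 in blue a and 577 in blue b. The groups were well apart relative to the spread within each, with a difference of 0.29 ± 0.11 and an edgeR adjusted p of 0.804. COL17A1, a transmembrane collagen, stood at 373 and 365 CPM in dark and 434 and 405 in blue (0.19 ± 0.12), and the linker plectin, PLEC, at 69.9 and 70.8 in dark and 83.3 and 75.0 in blue (0.18 ± 0.14). ITGB4, the partner of ITGA6, overlapped at 263 and 189 CPM in dark and 214 and 280 in blue, and its difference of 0.13 was -0.10 without dark b and -0.06 without blue b. DST and CD151 were level, at -0.01 ± 0.12 and 0.01 ± 0.11, with signs that turned when dark b or blue b was left out and, for DST, without a scaling factor.

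Laminins and collagens of the basement membrane lay on both sides of 0. LAMA5, the alpha chain of the laminin shared by many epithelia, stood at 152 CPM in dark a, 125 in dark b, 168 in blue a and 202 in blue b (0.42 ± 0.13), and COL7A1, the anchoring fibril collagen, at 40.1, 33.9, 46.0 and 44.9 CPM (0.32 ± 0.15). Both were separated upwards. LAMA3 and LAMB3, chains of the keratinocyte laminin, were level, at 0.07 ± 0.13 and -0.06 ± 0.12. The sign of LAMA3 turned without dark b or without blue a, and that of LAMB3 without blue b. The collagens of the basement membrane sheet lay lower, COL4A1 with 19.5 and 21.3 CPM in dark and 17.0 and 13.4 in blue (-0.41 ± 0.21) and COL4A2 with 79.0 and 74.0 in dark and 64.1 and 58.7 in blue (-0.31 ± 0.14). LAMB1, a beta chain that joins LAMA5, lay lower as well, at 64.2 and 75.5 CPM in dark and 55.2 and 58.7 in blue (-0.31 ± 0.16), whereas LAMC1 was level (-0.03 ± 0.12).

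The other integrins and receptors (10 of 12 above 0, median 0.09) and the adaptors that join integrins to actin (6 of 12, median 0.00) held no gene at an unadjusted p under 0.05. A 2-fold change lay outside the interval for all 12 receptors and 11 adaptors. The adaptor paxillin, PXN, had the largest separated difference of these, at 152 and 149 CPM in dark and 165 and 193 in blue (0.25 ± 0.14).

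Genes of basal identity lay above 0 for 8 of 9 tested members (88.9%, against 48.6% of all genes), with a median of 0.19 and every interval within 2-fold. At an unadjusted p under 0.05 there were 2 higher (22.2%, against 2.84%) and 0 lower. Both irradiated libraries lay above both dark libraries for 3 (33.3%, against 16.6%), and 6 overlapped. TP63 (ENSG00000073282, GRCh38 chromosome 3 from 189631416 to 189897279, plus strand) stood at 52.7 CPM in dark a, 53.1 in dark b, 77.6 in blue a and 77.8 in blue b. The libraries of each group were within 1 CPM of each other, and its difference of 0.55 ± 0.15 (95% interval 0.25 to 0.86, edgeR adjusted p = 0.709) lay between 0.55 and 0.56 when any 1 of the 12 libraries was left out. The basal keratin genes did not separate: KRT5 stood at 962, 1045, 1474 and 953 CPM, KRT14 at 693, 614, 789 and 628, and KRT15 at 2205, 1500, 1927 and 2342. Their differences of 0.28, 0.12 and 0.21 turned sign without blue a (KRT5 -0.08, KRT14 -0.06) or without dark b (KRT15 -0.05). TRIM29 was the 1 member below 0 (-0.24 ± 0.13). Without blue a 5 of the 9 members lay above 0, and the number higher at an unadjusted p under 0.05 was 1 without dark b and 4 without dark a.

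Most desmosome genes and other keratinocyte markers also lay above 0, and this shift ran beside that of the basal genes. Of 12 tested markers 11 lay above 0 (91.7%, against 48.6% of all genes) with a median of 0.22. At an unadjusted edgeR p under 0.05 there were 4 higher (33.3%, against 2.84%). Both irradiated libraries lay above both dark libraries for 5 (41.7%, against 16.6%), and 7 overlapped. KRT5, KRT14 and TP63 stand on both lists. KRT17 was level (-0.01). DSP differed by 0.08 and by -0.01 without dark a, and KRT6A by 0.44 and by 0.01 without blue a. PKP1, a desmosome plaque protein, stood at 477 and 424 CPM in dark and 523 and 632 in blue (0.36 ± 0.12), PERP, a desmosomal membrane protein, at 421 and 407 in dark and 513 and 525 in blue (0.33 ± 0.11), and the desmosomal cadherin DSC3 at 236 and 265 in dark and 277 and 315 in blue (0.23 ± 0.11). In bulk RNA a larger share of cells expressing a gene and more RNA of it per cell cannot be told apart. The part of the keratinocyte marker shift in the basal adhesion and identity values was not tested.

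**Figure D4:**
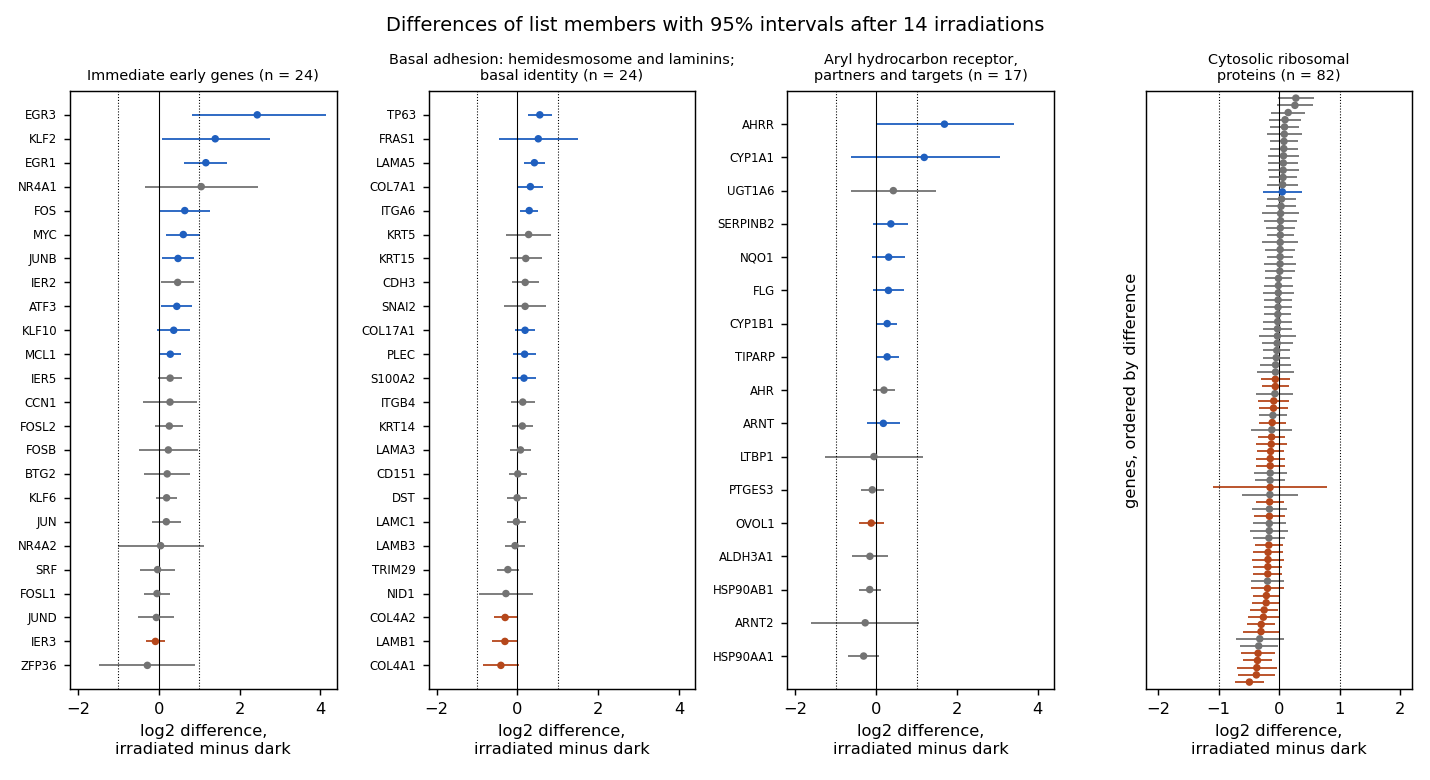
Log2 difference, irradiated minus dark, with its 95% interval for the tested members of 4 groups of genes after 14 irradiations; blue marks genes with both irradiated libraries above both dark libraries, brown those below and grey those that overlap, and dotted lines mark a 2-fold change, with some members left undrawn in the labelled panels. TP63 leads the basal panel at 0.55, AHRR and CYP1A1 have intervals that pass 2-fold, and of the 82 ribosomal protein genes only RPL17 has an interval that does.

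Targets of the aryl hydrocarbon receptor were higher in irradiated cells for most members, by small amounts. Of 12 listed genes 11 were tested, 8 lay above 0 (72.7%, against 48.6% of all genes), and the median was 0.30. At an unadjusted p under 0.05 there were 2 higher (18.2%, against 2.84%), CYP1B1 and AHRR, and 0 lower. Both irradiated libraries lay above both dark libraries for 7 (63.6%, against 16.6% of all genes) and below for 1. The median member stood at -0.04 in dark a, 0.04 in dark b, 0.21 in blue a and 0.37 in blue b, so here both irradiated libraries were above both dark ones. The median difference was 0.42 without dark b and 0.20 without blue b, where 0 were higher at an unadjusted p under 0.05. Without dark a the median difference was 0.22. The number higher at an unadjusted p under 0.05 was 1 of 11 with DESeq2 and 1 of 8 with the 4 libraries alone. CYP1A2 had no count in the 4 libraries.

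CYP1B1 (ENSG00000138061, GRCh38 chromosome 2 from 38066973 to 38109902, minus strand), a cytochrome P450 of hormone and xenobiotic metabolism, was the only target above 100 CPM. It stood at 132 CPM in dark a, 115 in dark b, 140 in blue a and 159 in blue b (0.27 ± 0.12, edgeR adjusted p = 0.818), and its interval left out anything beyond 1.43-fold. TIPARP, an ADP-ribosylating enzyme that dampens the receptor, stood at 45.5 and 43.7 CPM in dark and 50.6 and 57.8 in blue (0.27 ± 0.14). The quinone reductase NQO1 stood at 57.9 and 83.4 CPM in dark and 90.8 and 87.4 in blue (0.31 ± 0.19), and the serpin SERPINB2 at 46.4 and 53.7 in dark and 63.2 and 67.3 in blue (0.37 ± 0.20). FLG, the barrier protein gene, stood at 36.9 and 42.3 CPM in dark and 47.4 and 52.0 in blue (0.30 ± 0.18). NQO1 is also a target of the oxidant-responsive factor NRF2, and FLG a differentiation gene, so they stand on more than 1 list.

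The most specific targets were near the limit of depth. CYP1A1, the classical target, had 2 counts in dark a, 5 in dark b, 5 in blue a and 3 in blue b, or 0.573, 0.639, 1.44 and 1.43 CPM. Its difference of 1.19 ± 0.88 had a 95% interval from -0.62 to 3.06, so changes up to 8.33-fold remained inside. AHRR, the repressor that the receptor induces, had 1, 6, 4 and 7 counts in the same order, or 0.286, 0.767, 1.15 and 3.34 CPM (1.69 ± 0.81). The receptor and its partners leaned the other way as a list. Of 7 tested genes 2 lay above 0 (28.6%, against 48.6% of all genes), AHR and ARNT, and the median was -0.16. The receptor itself, AHR, overlapped at 73.0 and 64.8 CPM in dark and 83.9 and 71.6 in blue (0.19 ± 0.14). Its dimer partner ARNT stood at 17.5 and 15.6 in dark and 18.4 and 18.6 in blue (0.18 ± 0.20). HSP90AA1, a chaperone that holds the receptor in the cytosol, overlapped at 2241 and 3105 CPM in dark and 2512 and 1801 in blue (-0.31 ± 0.18). OVOL1, a factor linked to the receptor in barrier genes, was the target with both irradiated libraries lower (-0.12 ± 0.15).

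The promoters of CYP1A1 and TIPARP are shown because the receptor acts through a short core, GCGTG, the part of the xenobiotic response element that does not vary. Capitals mark the core or its reverse complement CACGC in the 250 bases before the RefSeq start on GRCh38.p14. CYP1A1 lies on the minus strand (chr15:74725529-74725778) and has 1 core, 57 to 53 bases before the start, while TIPARP (chr3:156674340-156674589, plus strand) has 2, at 208 to 204 and 142 to 138 bases.
CYP1A1: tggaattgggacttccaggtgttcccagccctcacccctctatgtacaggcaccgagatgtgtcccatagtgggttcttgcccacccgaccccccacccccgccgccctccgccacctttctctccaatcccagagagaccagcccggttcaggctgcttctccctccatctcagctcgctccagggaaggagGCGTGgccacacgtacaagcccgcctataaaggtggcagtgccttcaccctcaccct
TIPARP: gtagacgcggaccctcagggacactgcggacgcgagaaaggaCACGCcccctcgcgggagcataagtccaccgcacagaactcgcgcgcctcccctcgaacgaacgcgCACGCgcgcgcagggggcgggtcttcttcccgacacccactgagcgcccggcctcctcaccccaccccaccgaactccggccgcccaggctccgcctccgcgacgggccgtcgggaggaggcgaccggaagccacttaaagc
A core this short is frequent. It occurred on either strand in 31.9% of 27305 promoters and in 5 of the 9 targets with an entry, namely CYP1A1, AHRR, TIPARP, UGT1A6 and LTBP1, and no reading of receptor binding can be drawn from it.

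Cytosolic ribosomal protein genes lay slightly lower in irradiated cells. Of 82 tested genes 25 lay above 0 (30.5%, against 48.6% of all genes), with a median of -0.07, 0 higher and 10 lower at an unadjusted p under 0.05, and 30 separated downwards (36.6%, against 16.6%) against 1 upwards. The count of 10 was 4 without dark b and 3 with the 4 libraries alone, and without blue a it was 14 lower against 3 higher. The shift was small in absolute terms: the interval lay within 1.5-fold for 72 genes and within 2-fold for 81. The summed level was 102460 CPM in dark a, 101881 in dark b, 93835 in blue a and 97604 in blue b, lower in both irradiated libraries. The median difference ran from -0.09 without blue b to -0.04 without blue a, and it was -0.04 without a scaling factor. Small subunit genes (11 of 33 above 0, median -0.06) and large subunit genes (14 of 49, median -0.07) did not differ in direction.

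RPS4X (ENSG00000198034, GRCh38 chromosome X from 72255679 to 72277300, minus strand), a small subunit protein, had the largest difference of these. It stood at 1545 CPM in dark a, 1680 in dark b, 1205 in blue a and 1089 in blue b (-0.49 ± 0.12, 95% interval -0.73 to -0.25, edgeR adjusted p = 0.627). The groups were apart by more than the spread within them, and without 1 library the value stayed between -0.57 and -0.41. RPS3 stood at 3974 and 3820 CPM in dark and 3296 and 2783 in blue (-0.36 ± 0.11), and RPL26 at 2007 and 2264 in dark and 1760 and 1528 in blue (-0.38 ± 0.14). RPS10 (-0.30 ± 0.11), RPL3 (-0.26 ± 0.12) and RPL31 (-0.25 ± 0.11) also separated downwards. RPL39 did so with 369 and 384 CPM in dark, 361 in blue a and 218 in blue b, so blue a was close to the dark libraries, and RPS24 overlapped. RPL23A had the largest positive difference (0.28), and its groups overlapped.

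Ribosomal protein genes have many near-identical processed copies in the genome, and counts of members and copies cannot be told apart where reads match both. RPL13AP25, such a copy annotated as a processed pseudogene on chromosome 13, stood at 51.3 CPM in dark a, 56.5 in dark b, 16.1 in blue a and 35.8 in blue b (-1.16 ± 0.25). Translation factors that share the pyrimidine-rich transcript start of ribosomal protein genes had 6 of 15 above 0 and a median of -0.07, with EEF1D (-0.27 ± 0.11) and NACA (-0.26 ± 0.12) lower at an unadjusted p under 0.05. Ribosome biogenesis genes had 3 of 22 above 0 (13.6%, against 48.6% of all genes) and a median of -0.19. The median member stood at -0.07 in dark a, 0.07 in dark b, -0.05 in blue a and -0.30 in blue b, so blue a lay between the dark libraries. Of these genes 5 separated downwards (22.7%, against 16.6%), 1 upwards, and 16 overlapped. FBL (-0.27 ± 0.12) and WDR12 (-0.35 ± 0.16) were among the 5. After 3 irradiations the median was -0.19 as well. Mitochondrial ribosomal protein genes were nearer to level, with 12 of 29 above 0 and a median of -0.04.

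Genes were also taken from the whole table, on a list or not. A level of at least 10 CPM and groups that do not overlap were met by 1515 genes higher and 1403 lower in irradiated cells, and the 12 of these with the smallest p each way are named. EGR1, TP63, RPS4X, MRPS26, SYT1 and NRGN among them stand on the lists. Their adjusted p lay between 0.552 and 0.709, so none is a call. SERPINB13 stood at 543 CPM in dark a, 505 in dark b, 738 in blue a and 786 in blue b (0.54 ± 0.11, 95% interval 0.31 to 0.77). VMP1, a protein of autophagosome formation, stood at 143 and 119 CPM in dark and 185 and 208 in blue (0.59 ± 0.13). VAV3, a guanine nucleotide exchange factor, was the tightest of these pairs beside TP63, at 31.2 and 31.0 CPM in dark and 46.3 and 48.7 in blue (0.60 ± 0.14).

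Lysosomal and signalling genes followed among the higher genes. GPNMB, a lysosomal and melanosomal glycoprotein, differed by 0.52 ± 0.12 and GM2A, the ganglioside activator of lysosomes, by 0.48 ± 0.12. NOTCH1, the receptor that starts keratinocyte differentiation, stood at 59.6 and 51.4 CPM in dark and 74.4 and 81.7 in blue (0.50 ± 0.14). SFRP1, a secreted Wnt inhibitor, stood at 5.73 and 6.90 CPM in dark and 11.8 and 15.3 in blue (1.02 ± 0.25). The cofactor LDB1 (0.82 ± 0.21), C1orf21 (0.66 ± 0.18) and the pyruvate dehydrogenase phosphatase PDP1 (0.44 ± 0.12) complete the higher genes beside EGR1 and TP63.

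Of the 12 lower genes, SYT1, NRGN and BCAS1 are best known from nervous tissue, and RPS4X, RPL13AP25 and MRPS26 are ribosomal genes or a copy of one. BCAS1, a gene of myelinating cells, stood at 22.9 and 18.7 CPM in dark and 6.89 and 11.5 in blue (-1.22 ± 0.34). MRFAP1L1 stood at 200 and 182 CPM in dark and 125 and 148 in blue (-0.49 ± 0.12), and GPR107, a Golgi membrane protein, at 133 and 124 in dark and 93.7 and 86.9 in blue (-0.50 ± 0.12). The nuclear receptor NR2F1 (-0.71 ± 0.18), the selenoprotein gene SELENOW (-0.48 ± 0.12), ZNF428 (-0.65 ± 0.18), LIMCH1, an actomyosin regulator (-0.57 ± 0.16), and MRPS26 (-0.45 ± 0.12) had moderate differences.

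**Figure D5:**
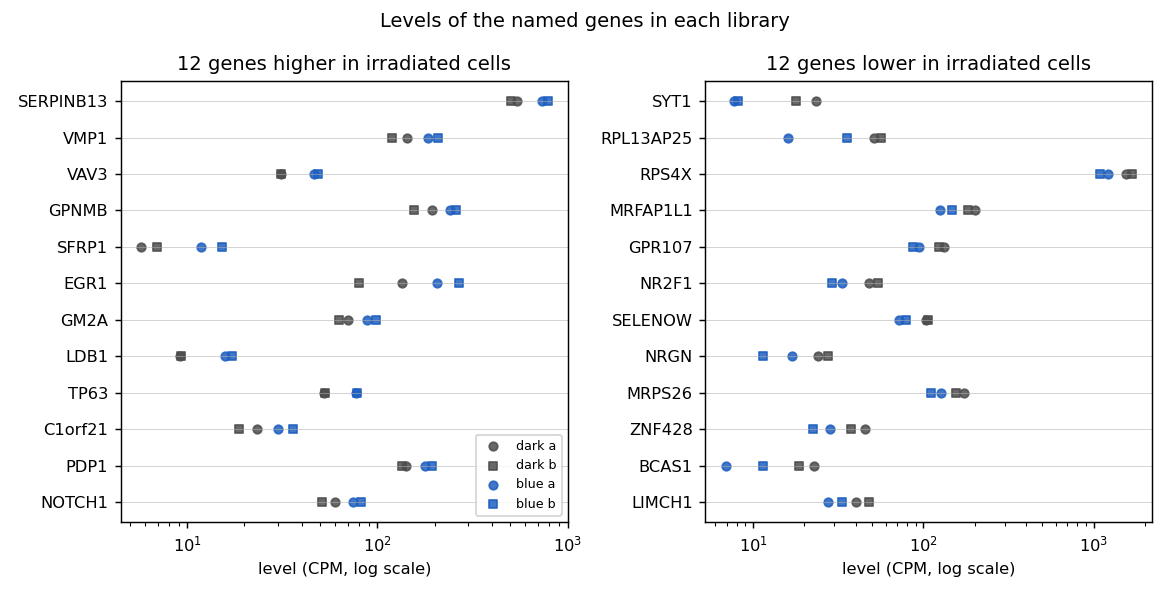
Level of the 24 named genes in each library (horizontal log axis, CPM), with circles for replicate a and squares for replicate b, grey for dark and blue for irradiated cells. In every row both irradiated libraries lie on 1 side of both dark libraries, which the rule required; VAV3 and TP63 show almost no spread within a group, while EGR1, RPL13AP25 and BCAS1 show the widest.

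Neuronal transcripts, at low levels, had a larger median difference than any of the pathway lists. Of 20 neuronal markers 18 were tested, 2 lay above 0, the median was -0.87, and 9 were lower at an unadjusted p under 0.05, with 11 separated downwards (61.1%, against 16.6% of all genes). Without 1 of the 4 libraries, 6 to 9 were lower at that p. SYT1, a calcium sensor of synaptic vesicles, stood at 23.5 CPM in dark a, 17.8 in dark b, 7.76 in blue a and 8.12 in blue b (-1.35 ± 0.30, edgeR adjusted p = 0.552). SNAP25 stood at 15.2, 12.01, 6.32 and 3.34 CPM, STMN2 at 4.87, 3.96, 1.72 and 1.43, and NEFM at 6.87, 4.09, 1.44 and 0.955. Both irradiated libraries were below both dark libraries for each of these. The microtubule-associated MAP2 stood at 29.5 and 30.7 CPM in dark and 20.4 and 20.1 in blue (-0.57 ± 0.17), and MAP1B, which is not on the marker list, at 33.8 and 39.6 in dark and 16.4 and 12.4 in blue (-1.33 ± 0.52).

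The whole list summed to 307 CPM in dark a, 338 in dark b, 267 in blue a and 233 in blue b, and its most abundant members did not shift with the rest. VSNL1 stood at 81.9, 94.0, 98.5 and 88.8 CPM and NEFL at 58.7, 94.7, 77.0 and 53, both overlapping, and TUBB3 was at 0 in all 4. Glial markers summed to 382, 403, 350 and 394 CPM, with OLIG2 at 0. Of 12 glial markers 6 were tested, 0 lay above 0, and the median difference was -0.76. Only 1 separated downwards (16.7%, against 16.6% of all genes), and 5 overlapped. Relative to the mean of the dark libraries, their median level was -0.38 in dark a, 0.38 in dark b, -0.29 in blue a and -0.72 in blue b. Blue a thus lay between the dark libraries, and the median difference was -0.05 without dark b. Fibroblast markers summed to 14.6, 15.2, 9.77 and 10.98, with POSTN at 0, and 3 of 10 were tested. All 3 separated downwards (against 16.6% of all genes), with a median of -2.05 and 2 at an unadjusted p under 0.05 (against 3.04%). Of these THY1 stood at 4.01 and 4.85 CPM in dark and 0.862 and 1.43 in blue. With no filter on low counts 9 fibroblast markers were tested, 3 lay above 0 and 1 was lower at an unadjusted p under 0.05. Erythroid markers summed to 5.16 CPM in dark a, 44.1 in dark b, 8.33 in blue a and 9.55 in blue b, so dark b stood apart. The labels name only HaCaT cells, and the part of these transcripts in the other differences was not tested.

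Among the other pathways, hypoxia and NRF2 genes lay above 0 for most members. Hypoxia and glycolysis genes had 20 of 29 above 0 (median 0.09) with 8 separated upwards (27.6%, against 16.6%) and 4 higher (13.8%, against 2.84%) and 0 lower at an unadjusted p under 0.05. That count was 2 without blue b and 1 of 25 with the 4 libraries alone. Among the 4 were ENO1, a glycolytic enolase at 1235 and 1301 CPM in dark and 1581 and 1512 in blue, and PDK1, an inhibitor of pyruvate entry to mitochondria, at 10.9 and 11.9 in dark and 18.7 and 17.2 in blue. NRF2 targets had 14 of 18 above 0 (77.8%, median 0.13), with 7 separated upwards (38.9%, against 16.6%) and FTH1, the ferritin heavy chain, the only member at an unadjusted p under 0.05 (0.26 ± 0.12). Their median was 0.03 without dark a and 0.04 without blue a. These examples were chosen after their values were seen. Genes of p53 (12 of 20 above 0, median 0.03), interferon response (16 of 35, -0.01), G1/S (10 of 30, -0.04) and G2/M (13 of 28, -0.02) had medians near that of all genes (-0.01). G1/S genes lay above 0 less often (33.3%, against 48.6% of all genes), with 5 separated downwards (16.7%, against 16.6%) and 1 upwards. Mitochondrially encoded genes had 8 of 15 above 0 and a median of 0.00, but MT-ND2 stood at 4869 and 4315 CPM in dark and 3820 and 2405 in blue (-0.56 ± 0.17). Differentiation genes had 11 of 17 above 0 (median 0.12).

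To ask whether any difference was particular to 14 irradiations, the effect was tested against that after 3 and after 42 irradiations, each with its own dark libraries. It differed for 5 genes (0.0388%) against 3 irradiations and for 7 (0.0544%) against 42, at an edgeR adjusted p under 0.05. These counts moved with single libraries, to between 1 and 38 against 3 irradiations and between 2 and 53 against 42, and DESeq2 gave 15 and 25. In the fit to all 12 libraries no member of the immediate early, basal adhesion, basal identity, aryl hydrocarbon receptor or ribosomal protein lists was among the 5 or the 7. Median differences of the lists after 3, 14 and 42 irradiations were 0.19, 0.28 and -0.09 for immediate early genes, 0.06, 0.07 and 0.08 for basal adhesion, and 0.06, 0.19 and 0.23 for basal identity. They were 0.05, 0.30 and 0.18 for receptor targets and -0.03, -0.07 and 0.00 for ribosomal proteins. EGR1 differed by 0.72 ± 0.23 after 3 and -0.30 ± 0.23 after 42 irradiations, and the 14 minus 42 difference of 1.46 had an adjusted p of 0.238. MYC differed by -0.79 ± 0.21 after 3 irradiations, where the 14 minus 3 difference of 1.40 had an adjusted p of 0.0793, and RPS4X by 0.19 ± 0.12 and 0.30 ± 0.12 after 3 and 42, where the differences from 14 had adjusted p of 0.133 and 0.102.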

How the data were processed

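Gene expression was measured in 12 HaCaT libraries made with a 3' mRNA kit, 2 for each of 6 groups named in the titles. The deposited values are raw counts of reads per gene, made by the authors with STAR and featureCounts on GRCh38, per the submitters' processing notes; no version, annotation release or strand setting is named there. Counts of antisense, overlapping and near-identical genes are therefore uncertain.

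From these counts, edgeR 4.0.16 in R 4.3.3 fitted 6 group means to all 12 libraries, after filterByExpr at a minimum count of 10 (12878 of 45372 rows) and TMM scaling, with robust quasi-likelihood tests, two-sided, Benjamini-Hochberg adjusted over all tested genes. The common biological coefficient of variation was 9.41%, with 6 residual degrees of freedom. Errors beside log2 differences are SE from the fit's working weights and posterior quasi-dispersion. Intervals use the t distribution on the total degrees of freedom, widened by Bonferroni where they cover all genes, and 33 genes with a group at 0 have none. Fits were tested on simulated data.

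Named genes are members of the pathway lists and the 12 with the smallest p each way among genes at 10 CPM or more whose groups do not overlap. The members and lists were chosen with earlier results of these data known. Lists are described by counts and medians, with no test; some members are in these counts and are not reported here individually. The libraries of a pair differed beyond sampling noise (chi-square per degree of freedom 4.89 for dark_14 and 4.72 for blue_14). It is not known whether the letters pair the libraries, and the main fit did not pair them. The correlation of a minus b between dark and blue was 0.09 after 3, -0.29 after 14 and 0.41 after 42 irradiations. Alternatives were RLE scaling and none, DESeq2 1.42.0, limma-voom (limma 3.58.1), 2 other filters, a replicate block, non-robust estimation, the 4 libraries alone, and leaving out each library. Promoters came from RefSeq on GRCh38.p14 and gene positions from GENCODE release 29, which matched all 12878 tested rows.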

Additional observations from a re-analysis of the deposited data

Results flagged for a closer look

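Each result here is a difference between the effect after 14 irradiations and that after another number of irradiations, tested as a contrast in edgeR with Benjamini-Hochberg adjustment over all genes. Each irradiation number has its own 2 dark and 2 irradiated libraries, so the contrasts share none within themselves. SYT1 differed by -3.44 on the log2 scale between its effects after 14 and after 3 irradiations (adjusted p = 0.00183), since it was higher in irradiated cells after 3 (2.09 ± 0.35) and lower after 14. The same held for NEFM, a neurofilament subunit (difference -4.55, adjusted p = 0.0336), and MAP2 (difference -1.27, adjusted p = 0.0336). The dark libraries after 14 irradiations had 24 and 32 counts of NEFM and the irradiated ones 5 and 2. CELF4, an RNA-binding protein of neurons, differed by -4.88 (adjusted p = 0.0211), on 15 and 31 counts in the dark and 6 and 3 in the irradiated libraries after 14. MRFAP1L1 differed by -0.99 in the same contrast (adjusted p = 0.0211), with 0.50 ± 0.11 after 3 irradiations. Against 42 irradiations, SFRP1 differed by -2.80 (adjusted p = 0.000335), as its difference from dark cells was 1.02 after 14 and 3.82 ± 0.22 after 42. VAV3 differed by 1.01 (adjusted p = 0.0493), with -0.41 ± 0.12 after 42 irradiations.

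These calls moved with single libraries. SYT1 and SFRP1 passed in all 12 fits without 1 library, with a highest adjusted p over the 20 alternatives of 0.032 for SYT1 and 0.0272 for SFRP1. Of the same 12 fits, MRFAP1L1 and CELF4 passed in 6, NEFM in 4, MAP2 in 3 and VAV3 in 2. Without dark a after 3 irradiations the adjusted p was 0.199 for MAP2, CELF4, NEFM and MRFAP1L1, and without blue a after 42 irradiations it was 0.21 for VAV3. The sign stayed the same for all 7 genes in every alternative that gave a value.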

How the results depend on the processing

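No gene was called after 14 irradiations under RLE scaling, no scaling factor, limma-voom, a filter at 5 CPM, non-robust estimation, the 4 libraries alone, or the replicate block, on 12 or on 4 libraries. DESeq2 called 2, the fit with no filter 14, and fits without 1 library 0 to 11. A crossed replicate block on the 4 libraries, chosen after seeing the data, gave 83 calls. The number of genes at an unadjusted p under 0.05 was 748 with the replicate block, 448 with the 4 libraries alone, 400 with DESeq2 and 652 to 1424 without 1 library. The share of genes whose interval lay within 2-fold was 42.7% with no filter, since more low genes are then counted, and 57.6% to 72.4% without 1 library. Without 1 library the median difference was 0.14 to 0.49 for immediate early genes, 0.026 to 0.114 for basal adhesion, 0.10 to 0.22 for basal identity, 0.20 to 0.42 for receptor targets and -0.09 to -0.04 for ribosomal proteins, and no setting tried turned the sign of these medians.

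The number of genes whose effect differed from that after 3 irradiations was 3 with limma-voom and with a filter at 5 CPM, 8 with non-robust estimation, 15 with DESeq2, 115 with no filter and 1 to 38 without 1 library. Against 42 irradiations it was 25 with DESeq2, 80 with no filter and 2 to 53 without 1 library. These fits of the contrasts were added after seeing the data, and the cause of these moves was not tested. Single genes whose sign turned without 1 library ranged from -0.095 to 0.067 for DST, -0.056 to 0.079 for CD151, -0.10 to 0.38 for ITGB4, -0.075 to 0.20 for LAMA3, -0.20 to 0.063 for LAMB3, -0.10 to 0.053 for LAMC1, -0.081 to 0.56 for KRT5, -0.060 to 0.28 for KRT14, -0.049 to 0.51 for KRT15, -0.57 to 0.17 for NEFL and -0.00018 to 0.20 for VSNL1. DST was 0.014 with no scaling factor. Where a group kept a single library, its variance was taken from the remaining groups. Depth limits genes under 10 CPM, where the smallest library counted fewer than 3 reads for a level below 1.43 CPM.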

Other observations

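B3GALT5, a galactosyltransferase of glycan synthesis that stands on none of the lists, had 40 counts in dark a, 59 in dark b, 12 in blue a and 4 in blue b, or 11.5, 7.54, 3.45 and 1.91 CPM. Its log2 difference was -1.66 ± 0.39 with an edgeR adjusted p of 0.552, and it passed only without the filter on low counts (adjusted p = 0.0378). SPARCL1, a secreted matrix glycoprotein, stood at 29.2 CPM in dark a, 35.9 in dark b, 12.6 in blue a and 4.78 in blue b (-1.80 ± 0.67). Among genes higher in irradiated cells past 2-fold, SERPINB3, an epithelial serpin, stood at 15.8 CPM in dark a, 4.60 in dark b, 21.0 in blue a and 47.3 in blue b (1.89 ± 0.91), HLA-DRA at 8.31, 5.24, 11.8 and 22.4 (1.35 ± 0.38) and EDEM1, a factor of protein quality control in the endoplasmic reticulum, at 5.16, 6.26, 10.6 and 13.8 (1.03 ± 0.30). These genes were chosen after their values were seen, and their groups do not overlap.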
